A study of Mus musculus with 9 samples.

Results

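Toll-like and NOD receptor sensing was followed here through 10 genes in mouse gut organoids, chosen by name from a list of receptors, co-receptors and adaptors. They are the Toll-like receptors Tlr2, Tlr3, Tlr4 and Tlr5, the lipopolysaccharide co-receptors Cd14 and Ly96, the adaptors Myd88 and Tirap, and the NOD receptors Nod1 and Nod2. All 10 were found among the 23955 gene rows of the count table. The 10 genes and the gene lists used below were chosen with earlier results of these data known. RNA-seq had been performed on 9 organoid samples in 3 groups of 3. The MIN organoids were grown from normal-appearing gut epithelium of APCmin/+ mice, which carry a mutated copy of the Apc tumor suppressor. The Adenoma organoids were grown from adenomatous polyps of such mice, and the Sulindac organoids from polyps and then treated with sulindac, a non-steroidal anti-inflammatory drug (NSAID). All groups therefore carry the Apc mutation, and there was no wild-type group and no sulindac-treated MIN group. All were cultured with Noggin, EGF, bFGF, R-spondin1 and B27. The age of the mice, the gut segment, the dose and duration of sulindac for the organoids, and whether untreated adenoma organoids received a vehicle are not given in the sources used here. The samples are called biological replicates, but nothing says whether they came from separate mice, so the p-values measure only the spread between these samples.

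Toll-like receptors recognize conserved microbial molecules at the cell surface or in endosomes, and most of them signal through the adaptor Myd88 to the transcription factor NF-κB. NOD receptors detect fragments of bacterial cell wall peptidoglycan inside the cell and reach NF-κB through the kinase Ripk2. In the gut, epithelial cells face bacteria continuously, and the mouse small intestinal epithelium is known for low Tlr4 and for Tlr5 that is found mainly in Paneth cells. Tlr4 recognizes lipopolysaccharide (LPS) together with Ly96, also called MD-2, and Cd14, which hands LPS to that pair. Tlr5 recognizes bacterial flagellin.

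Samples held between 30881206 and 48412477 counts. Levels are in CPM, a gene's counts scaled to its library total after TMM normalization. A gene with 3 counts or fewer was taken to lie at the floor of what this depth can show, which was 0.0641 to 0.10 CPM. Floors and intervals on counts cover counting error only. Differences are log2 fold changes with their standard errors (SE), from the quasi-likelihood test of edgeR, and p-values were adjusted by the Benjamini-Hochberg method over all genes tested. A gene is called, and is said to have risen or fallen, at a false discovery rate (FDR) under 1%. The adenoma samples enter the comparison with MIN and the comparison with sulindac, and the MIN samples also enter 2 comparisons, so these are not independent of each other. In such bulk samples, fewer cells of a type and less RNA per cell cannot be told apart.

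The epithelial label fitted the markers: 6 epithelial genes had summed levels of 5320–7790 CPM in MIN, of 3210–4230 in adenoma and of 4510–5380 in the sulindac group. Of 14 leukocyte markers 12 were in the table, and they summed to 34.2–41.5, 9.53–17.2 and 3.49–5.07 CPM. Kit, at 27.4 to 36.4 CPM, gave most of the sum in MIN, and Cd68 gave most of it in adenoma. Whether the Kit signal came from leukocytes was not tested. Ptprc, which marks all leukocytes, was at 0 to 1 counts in MIN samples, at 4 to 8 in adenoma and at 0 after sulindac, and Itgax had 0 in all 9 samples. Mesenchymal markers (8 genes) summed to 3.94–4.22, 1.98–2.37 and 0.825–1.08 CPM, and the 4 endothelial markers to at most 0.758 CPM. Within the mesenchymal list Pdgfrb had 143, 176 and 127 counts in MIN and 1 count in the 6 other samples together, whereas Pdgfra had 5, 8 and 6 counts in MIN, 28, 39 and 25 in adenoma and 20, 12 and 20 after sulindac. Col1a1 had 13, 10 and 22 counts, then 40, 32 and 54, then 11, 13 and 17. In MIN, Pdgfrb lay at 3.46 to 3.76 CPM, above Tlr5 at 2.12 to 3.05 CPM. Pdgfra at 0.122 to 0.171 CPM and Col1a1 at 0.214 to 0.599 CPM lay below Tlr4 there, at 0.769 to 0.98 CPM. The part of these markers in the results was not tested. Markers of most differentiated cell types were lower in adenoma than in MIN. Paneth cell markers summed to 15900–19000 CPM in MIN, 909–1300 in adenoma and 188–282 after sulindac. Mmp7 went against the rest of this list, with 181 to 193 CPM in MIN, 604 to 833 CPM in adenoma, most of the adenoma sum, and 123 to 183 CPM after sulindac. Enterocyte markers summed to 2670–4480, 4.83–5.84 and 3.94–5.9 CPM in the same order. Goblet cell markers summed to 1800–2040, 127–232 and 58.6–121 CPM, and enteroendocrine markers to 309–569, 0.578–2.29 and 0.698–1.13 CPM. Tuft cell markers summed to 9.95–16.9, 6.49–9.27 and 7.03–16.5 CPM, so that MIN and sulindac-treated samples overlapped. Avil of this list rose in adenoma (1.16, edgeR adjusted p = 0.00563). It gave most of the sum after sulindac, at 6.1, 7.06 and 16 CPM. Dclk1, Trpm5 and Pou2f3 had mean levels of 3.121, 3.377 and 3.412 CPM in MIN. In adenoma these were 0.1497, 1.442 and 0.462 CPM, and after sulindac 0.0213, 0.459 and 0.2189 CPM. Of 4 tuft markers tested between sulindac-treated adenoma and MIN, 3 fell and 1 rose.

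Between adenoma and MIN organoids, 5 of the 10 genes were called, against a background of 38.7% of the 13744 genes tested. Tlr4 and Cd14 rose in adenoma, where 18.5% of all genes were called higher, and Tlr5, Myd88 and Nod1 fell, where 20.1% were called lower. The median log2 fold change of the 10 genes was 0.11, and that of all genes tested was -0.01. After sulindac, 3 of the 10 genes were called against untreated adenoma, beside 17.4% of 12962 genes. They were Tlr5, Cd14 and Nod1, and all 3 fell, where 9.1% of all genes were called lower. None of the 10 was called higher by edgeR, beside 8.32% of all genes, although 2 of them, Tlr4 and Myd88, were higher with unadjusted p of 0.00924 and 0.00274, and both passed with DESeq2. The median of the 10 genes was -0.22, beside -0.01 for all genes, and is the same with Tlr5 at its ratio of counts, since it ranks lowest either way. Against MIN, 4 of the 10 were called in the sulindac-treated organoids, beside 49.7% of 13551 genes, with Tlr4 higher, as were 23% of all genes, and Tlr5, Tlr3 and Nod1 lower, as were 26.8%. The median was -0.28, beside -0.03 for all genes. All 10 genes passed the filter on low counts in each comparison. The groups compared did not overlap for 5 of the 10 genes between adenoma and MIN (62.8% of all genes), for 7 between sulindac-treated and untreated adenoma (48.8%) and for 6 between sulindac-treated adenoma and MIN (69.6%).

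**Figure D1:**
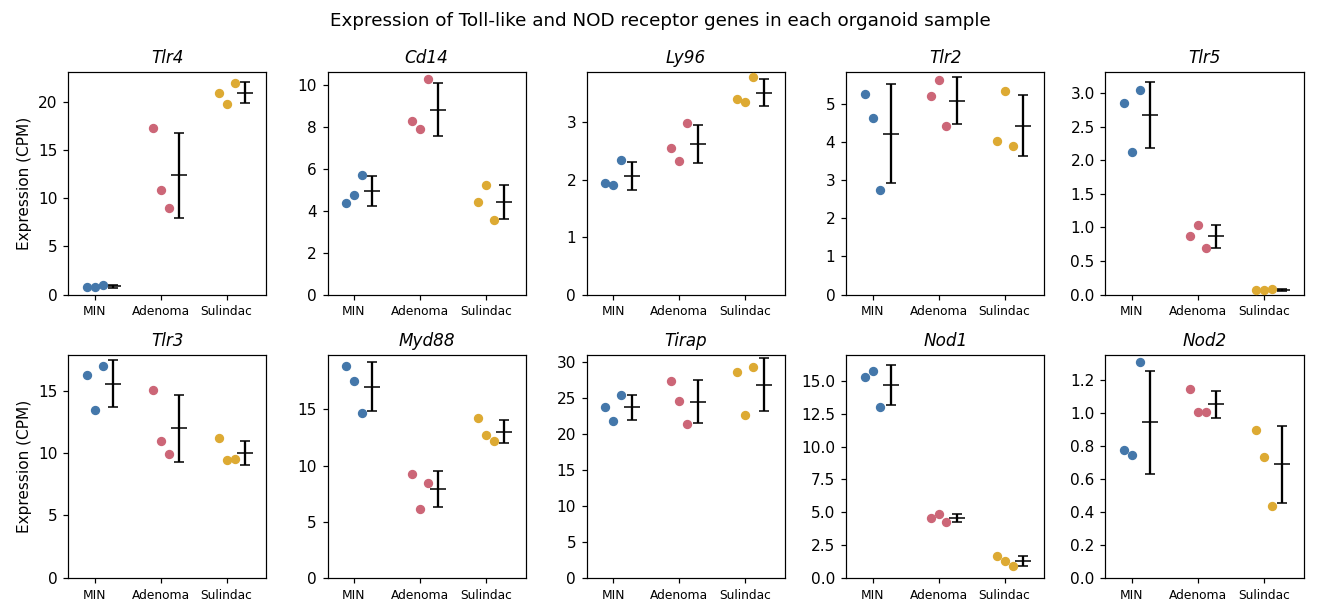
Expression of the 10 genes in CPM (vertical axes, starting at 0 and scaled per gene) in each of the 9 organoid samples, with colored points for samples and black marks for the mean ± SD of 3. Tlr4 lies at 0.769 to 0.98 CPM in MIN and at 8.96 CPM or more elsewhere, while Tlr5 and Nod1 step down from MIN to adenoma to sulindac-treated organoids.

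Tlr4, the signaling receptor for LPS, showed the greatest rise of the 10 genes. Its expression was 0.778, 0.769 and 0.98 CPM in MIN organoids (32, 36 and 36 counts), 17.3, 10.8 and 8.96 CPM in adenoma organoids, and 20.9, 19.8 and 22.0 CPM in sulindac-treated ones. Every adenoma sample lay above every MIN sample, and every sulindac-treated sample above every adenoma sample. The log2 fold change between adenoma and MIN was 3.88 (SE 0.31, 14.7-fold, edgeR adjusted p = 1.27e-05), and it stayed between 3.56 and 4.07 when any 1 sample was left out. Between sulindac-treated organoids and MIN it was 4.63 (SE 0.16, 24.8-fold, edgeR adjusted p = 9.41e-08). Between sulindac-treated and untreated adenoma organoids it was 0.76 (SE 0.23), which was not called by edgeR (adjusted p = 0.0319). Adenoma replicate 1 was the highest of the untreated adenoma samples, and without it the difference was 1.09 and was called (edgeR adjusted p = 0.00222).

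Cd14, which binds LPS and passes it on, was higher in adenoma alone. Its expression was 4.35, 4.76 and 5.72 CPM in MIN, 8.31, 7.91 and 10.3 CPM in adenoma, and 4.43, 5.23 and 3.58 CPM after sulindac. The adenoma samples did not overlap with either of the other groups, while MIN and sulindac-treated samples overlapped. Cd14 rose by 0.84 on the log2 scale in adenoma against MIN (SE 0.19, edgeR adjusted p = 0.00613) and fell by 0.99 with sulindac (SE 0.19, edgeR adjusted p = 0.00493). Between sulindac-treated organoids and MIN the difference was -0.17 (edgeR adjusted p = 0.496). Both calls depended on single samples. The rise was not called without MIN replicate 1 or 2 or without any of the 3 adenoma samples (0.72 to 0.92, edgeR adjusted p from 0.0112 to 0.03), and the fall was not called without adenoma replicate 1 or 2 or sulindac replicate 1 or 3 (-1.06 to -0.86, edgeR adjusted p from 0.0109 to 0.025).

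Ly96, the partner that completes the LPS binding site of Tlr4, differed less. It was at 1.95, 1.90 and 2.34 CPM in MIN, 2.56, 2.32 and 2.98 CPM in adenoma and 3.40, 3.36 and 3.78 CPM after sulindac. Adenoma and MIN overlapped (log2 difference 0.35, edgeR adjusted p = 0.239), whereas sulindac-treated samples lay above all others. Neither of their differences was called by edgeR, with 0.43 against adenoma (adjusted p = 0.119) and 0.77 against MIN (SE 0.20, adjusted p = 0.0101). The latter was called without MIN replicate 3 (0.86, edgeR adjusted p = 0.007).

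Compared per length, as CPM per kb of exon, the 3 LPS receptor genes were unequal in MIN and came closer together in adenoma. Lengths are those of all annotated exons of a gene, and the gene models behind the counts are not given in the sources used here. The SDs and ranks per length therefore do not cover errors of length. In MIN, Tlr4 was at 0.154 ± 0.0218 CPM per kb, Cd14 at 3.01 ± 0.427 and Ly96 at 3.26 ± 0.384 (SD, n = 3). In adenoma they were at 2.26 ± 0.803, 5.38 ± 0.78 and 4.14 ± 0.528, and after sulindac at 3.83 ± 0.201, 2.69 ± 0.503 and 5.56 ± 0.367. Among the 10 genes, Tlr4 was the lowest per length in MIN, with samples that overlapped those of its neighbor Nod2, and stood at rank 6 in adenoma and rank 4 after sulindac. Cd14 was at rank 6 in MIN, rank 1 in adenoma and rank 5 after sulindac. Cd14 and Ly96 samples overlapped in MIN, where Tlr3 and Nod1 lay in the same range.

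The order of all 10 genes per length also changed between the groups. In MIN, Myd88 (7.5 to 9.64 CPM per kb) stood above Tirap (4.61 to 5.37), followed by Tlr3, Nod1, Ly96 and Cd14, which overlapped between 2.65 and 3.79. Tlr2 (0.912 to 1.74), Tlr5 (0.518 to 0.746), and then Nod2 and Tlr4 came below them. In adenoma, Cd14 (4.82 to 6.28) overlapped with Tirap (4.5 to 5.77), and Ly96, Myd88, Tlr3, Tlr4 and Tlr2 followed, each overlapping with the next. Nod1 lay lower at 0.964 to 1.1, and Nod2 and Tlr5 overlapped, with no sample above 0.252. After sulindac, Myd88 (6.22 to 7.24) stood above Tirap and Ly96, which overlapped, and Tlr4 (3.62 to 4.02) stood apart from Cd14 and Tlr3 below it, which overlapped.

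**Figure D2:**
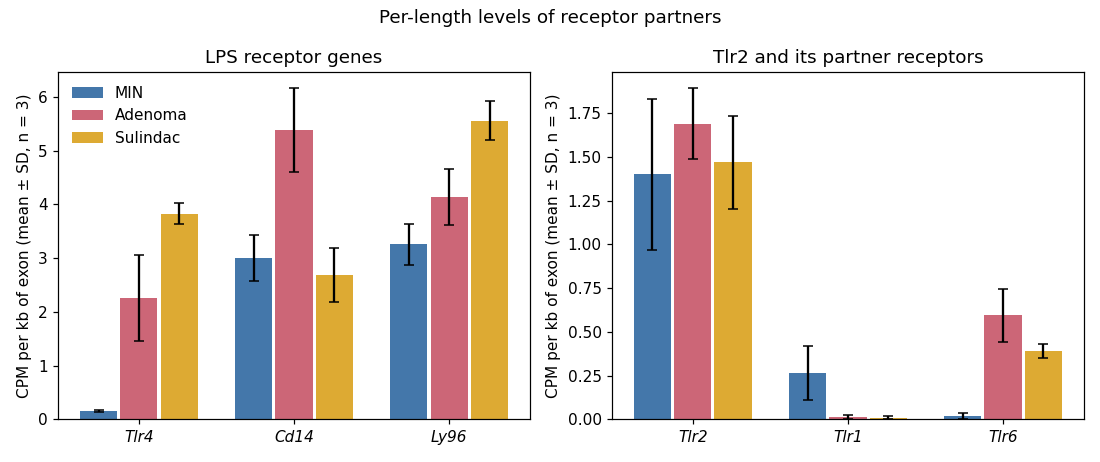
Levels per kb of exon (vertical axes, CPM per kb, bars are means and whiskers the SD of 3 samples) for the LPS receptor genes and for Tlr2 with its partner receptors Tlr1 and Tlr6, by organoid group. Tlr4 goes from 0.154 in MIN to 3.83 after sulindac, and Tlr1 and Tlr6 exchange places between MIN and adenoma.

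Because Cd14 and Tlr4 are also abundant in myeloid cells, the leukocyte markers were set beside them. Between adenoma and MIN 4 leukocyte markers could be tested, of which Cd68 was called higher and 3, Itgam, Lyz2 and Kit, were called lower. Cd68, a lysosomal protein abundant in macrophages, had 66, 53 and 83 counts in MIN, 369, 284 and 560 in adenoma and 117, 93 and 110 after sulindac. Cd68 moved with Cd14 in both comparisons, as did Ptprc at its few counts (0 to 1, 4 to 8 and 0), which could not be tested. Itgam, a myeloid integrin, had 148 to 159 counts in MIN, 4 to 13 in adenoma and 0 to 5 after sulindac. Cx3cr1 had 2 counts in each MIN sample, 2 to 7 in adenoma and 2 to 8 after sulindac. S100a8 had 0 counts in MIN, 0 to 5 in adenoma and 5 to 13 after sulindac, and the lymphocyte markers Cd3e and Cd79a had at most 4 in any sample. The macrophage marker Csf1r was at 1 to 6 counts in MIN samples, at 1 to 5 in adenoma and at 1 to 3 after sulindac. Lyz2 was at 13 to 23 counts in MIN samples and at 0 to 1 in every other sample. The part of these markers in the levels of Tlr4 and Cd14 was not tested.

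Tlr5, the flagellin receptor, fell at each step. It was at 2.85, 2.12 and 3.05 CPM in MIN (117, 99 and 112 counts) and at 0.87, 1.03 and 0.694 CPM in adenoma (31, 37 and 24 counts). In sulindac-treated organoids only 2, 2 and 3 counts were left, at or under the floor in each sample. No 2 groups overlapped. The log2 fold change between adenoma and MIN was -1.62 (SE 0.28, 3.07-fold, edgeR adjusted p = 0.00137). Against adenoma, the 7 counts of the sulindac group stood beside 92, a ratio of 12 after scaling to library totals (95% counting interval 5.61 to 30.8, edgeR adjusted p = 0.000699). Against the 328 counts of MIN the ratio was 36.5 (95% counting interval 17.5 to 91.5, edgeR adjusted p = 5.94e-06). Tlr5 was called in all 3 comparisons whichever sample was left out.

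Nod1, which senses peptidoglycan fragments that carry diaminopimelic acid, followed the same order. Its expression was 15.3, 15.8 and 13.0 CPM in MIN, 4.58, 4.86 and 4.25 CPM in adenoma and 1.67, 1.31 and 0.873 CPM after sulindac. The groups were fully separated, with MIN highest and sulindac-treated organoids lowest. Nod1 fell by 1.69 on the log2 scale in adenoma (SE 0.16, edgeR adjusted p = 3.67e-05) and by a further 1.83 with sulindac (SE 0.26, edgeR adjusted p = 0.00153). Between sulindac-treated organoids and MIN the log2 fold change was -3.53 (SE 0.24, 11.5-fold, edgeR adjusted p = 3.92e-06). All 3 calls were kept whichever sample was left out. Across the 9 samples, Tlr5 and Nod1 had a Pearson correlation of 0.98 on log2(CPM + 0.5), a description of 3 groups of points from shared libraries. The Paneth, goblet, enterocyte and enteroendocrine marker sums were also lower in adenoma than in MIN, although Mmp7 of the Paneth list rose, and their part in the levels of Tlr5 and Nod1 was not tested.

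Nod2, which senses muramyl dipeptide, was low in every group. It was at 0.778, 0.748 and 1.31 CPM in MIN, 1.15, 1.01 and 1.01 CPM in adenoma and 0.90, 0.734 and 0.436 CPM after sulindac. Adenoma and MIN overlapped and differed by 0.17 (edgeR adjusted p = 0.678). Sulindac-treated samples lay below the adenoma samples without being called (-0.61, SE 0.33, edgeR adjusted p = 0.18), and they overlapped with MIN (-0.45, edgeR adjusted p = 0.322). Per length, Nod2 was at rank 9 of the 10 in every group.

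Myd88, the adaptor shared by most Toll-like receptors and the interleukin-1 receptor family, was lower in adenoma. It was at 18.9, 17.5 and 14.7 CPM in MIN, 9.27, 6.17 and 8.41 CPM in adenoma and 14.2, 12.7 and 12.2 CPM after sulindac. Adenoma samples lay below all others, and the sulindac-treated samples lay between the adenoma and the MIN samples without overlap. Myd88 fell by 1.10 in adenoma against MIN (SE 0.19, 2.14-fold, edgeR adjusted p = 0.00128), a call kept whichever sample was left out. With sulindac it was 0.72 higher than in untreated adenoma, which was not called by edgeR (SE 0.17, adjusted p = 0.0137). The difference between sulindac-treated organoids and MIN was -0.39 (edgeR adjusted p = 0.0295), and it was called without MIN replicate 3 (-0.49, edgeR adjusted p = 0.00509). Per length, Myd88 was the highest of the 10 genes in MIN and after sulindac, at 8.69 ± 1.1 and 6.64 ± 0.52 CPM per kb (SD, n = 3), and at rank 4 in adenoma at 4.06 ± 0.816. In the reference annotation 7.42% of its 50-base stretches also occur in Acaa1a, so a part of its reads may be shared.

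The sequences before the start sites of the 3 genes that fell in adenoma are shown because 2 of them, Tlr5 and Nod1, were lower at every step and Myd88 was not. They are RefSeq promoters of GRCm38.p6, not the mm9 build named in the submitters' notes, and run up to the base before the start, without bases that the annotation places in an exon. RefSeq promoters were matched for 7 of the 10 genes. Nod1 has a second start in that table, whose stretch, chr6:54971662-54971911 on the minus strand, is not printed. The stretch shown is that of the more upstream start, and counts per gene do not tell which start was used. Capitals mark the letters of an interferon-stimulated response element, GAAA, any 2 bases and GAAA. The Tlr5 stretch is chr1:182954538-182954787 on the plus strand, that of Nod1 is chr6:54972613-54972862 on the minus strand, and that of Myd88 is chr9:119340042-119340268 on the minus strand.
Tlr5: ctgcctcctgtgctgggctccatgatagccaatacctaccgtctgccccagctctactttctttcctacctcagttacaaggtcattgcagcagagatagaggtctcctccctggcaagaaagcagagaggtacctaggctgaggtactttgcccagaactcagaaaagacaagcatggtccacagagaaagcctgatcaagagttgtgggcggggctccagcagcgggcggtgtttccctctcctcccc
Nod1: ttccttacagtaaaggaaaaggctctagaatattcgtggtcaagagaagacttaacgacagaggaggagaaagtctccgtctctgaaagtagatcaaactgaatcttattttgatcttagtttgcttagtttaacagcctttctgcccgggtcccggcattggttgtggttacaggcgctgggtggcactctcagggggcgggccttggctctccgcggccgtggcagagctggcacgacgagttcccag
Myd88: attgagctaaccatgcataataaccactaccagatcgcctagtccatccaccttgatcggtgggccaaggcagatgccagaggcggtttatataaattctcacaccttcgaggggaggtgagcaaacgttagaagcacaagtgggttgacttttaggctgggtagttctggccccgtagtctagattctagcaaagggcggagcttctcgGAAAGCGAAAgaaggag
The 250 bases before each start were searched on both strands for 5 motifs. The interferon element was found in Myd88 among the 7 genes and in 2.98% of 32851 promoters. The NF-κB letters, GGG, any 2 bases and TTTCC, were found in Tlr3 alone, and in 1.41% of all promoters. The search kept bases that the annotation places in an exon. Leaving those out, as in the printed stretches, would keep 0 bases for Tlr3. The TCF/LEF letters CTTTGAT (3.21% of promoters), the AP-1 letters TGANTCA (6.75%) and the ETS letters GAGGAAGT (2.44%) were found in none of the 7. A match is a description of letters and not a binding site.

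Tirap, which brings Myd88 to Tlr2 and Tlr4 at the membrane, did not pass the test in any comparison. It was at 23.7, 21.8 and 25.4 CPM in MIN, 27.3, 24.6 and 21.3 CPM in adenoma and 28.5, 22.6 and 29.3 CPM after sulindac. All groups overlapped, and the log2 differences were 0.05 between adenoma and MIN, 0.14 between sulindac-treated and untreated adenoma and 0.18 between sulindac-treated adenoma and MIN (edgeR adjusted p = 0.775, 0.495 and 0.24). Its exons overlap Gm39318 on the opposite strand, and whether the counting used strand is not given in the sources used here. Per length, Tirap was at rank 2 in all 3 groups.

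Tlr2, which recognizes bacterial lipoproteins, did not pass the test either. It was at 5.25, 4.64 and 2.75 CPM in MIN, 5.22, 5.62 and 4.42 CPM in adenoma and 4.03, 5.35 and 3.90 CPM after sulindac. All groups overlapped, with MIN replicate 3 the lowest sample. The differences were 0.27, -0.20 and 0.06 in the order of comparisons given for Tirap (edgeR adjusted p = 0.421, 0.476 and 0.85).

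Tlr3, the endosomal receptor for double-stranded RNA, was lower than in MIN only in the sulindac-treated organoids by the test, and the difference between the comparisons was not tested. It was at 16.3, 13.5 and 17.0 CPM in MIN, 15.1, 11 and 9.94 CPM in adenoma and 11.2, 9.42 and 9.54 CPM after sulindac. The adenoma samples overlapped with both other groups, which did not overlap with each other. Against MIN, Tlr3 fell by 0.64 in sulindac-treated organoids (SE 0.14, edgeR adjusted p = 0.00366). The call was lost without MIN replicate 1 (-0.60, adjusted p = 0.0143), sulindac replicate 2 (-0.58, 0.0159) or sulindac replicate 3 (-0.60, 0.0187). The differences of adenoma from MIN and of sulindac-treated from untreated adenoma were -0.37 and -0.25 (edgeR adjusted p = 0.128 and 0.329). Its exons overlap Gm45542 on the opposite strand.

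**Figure D3:**
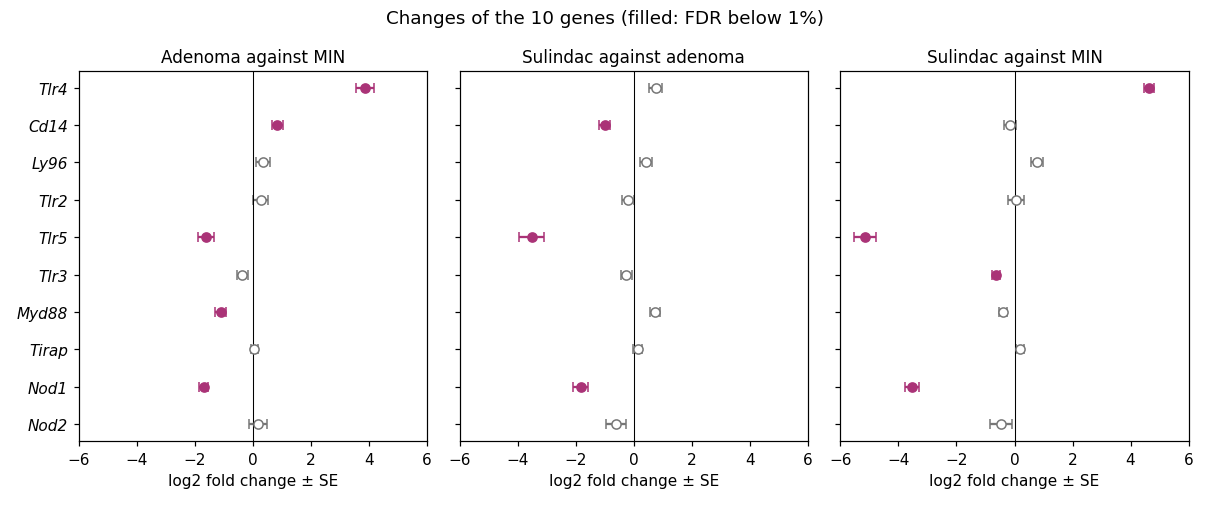
Log2 fold change ± SE (horizontal axes) of each of the 10 genes in the 3 comparisons, filled where the FDR was below 1%. Tlr4 stands at 3.88 against MIN in adenoma, Nod1 is below 0 in all 3 panels, and the fitted values of Tlr5 in the sulindac panels rest on 7 counts and depend on the fit's prior count.

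The genes whose profiles over the 9 samples were most like those of the called genes were found by Pearson correlation of log2(CPM + 0.5) among 13883 genes. They were Igf2bp1 (0.997), Nceh1 (0.996) and Npnt (0.996) for Tlr4, and Rab27a (0.994), 2810442I21Rik (0.991) and Mid1 (0.991) for Tlr5. For Nod1 they were Pdk3 (0.993), 1700019G17Rik (0.992) and Rab27a (0.991), so that Rab27a stood in both lists. For Cd14 they were Pqlc1 (0.976), Cetn3 (0.971) and Nubpl (0.964), and for Myd88 Zdhhc7 (0.989), Fbp2 (0.984) and Txnrd2 (0.983). The likeness was weaker for Tlr3, with Pdk1 (0.938), Gm14124 (0.933) and Sclt1 (0.933). The samples form 3 groups and share libraries, so these values are descriptions.

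The rest of the pathway was followed through 85 genes in lists by role. Between adenoma and MIN 63 of them were tested, of which 8 rose and 11 fell, or 30.2%, with a median log2 fold change of -0.03. Between sulindac-treated and untreated adenoma 56 were tested, of which 6 rose and 7 fell, or 23.2%, with a median of -0.03. That count of 13 was 8 without adenoma replicate 2 or sulindac replicate 2, and 6 without sulindac replicate 1 or 3. Calls over all genes fell too, from 1078 higher and 1179 lower to 576 and 622 without adenoma replicate 2. Without sulindac replicate 2 they were 608 and 631, without replicate 1 489 and 492, and without replicate 3 423 and 386. Between sulindac-treated adenoma and MIN 61 were tested, of which 14 rose and 17 fell, or 50.8%, with a median of -0.01. With all samples in the fits, the share was below the background of all genes in the first comparison, above it in the second and near it in the third. Because the lists were chosen with earlier results of these data known, these shares are descriptions.

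Of the other Toll-like receptors, Tlr1 and Tlr6, the partners with which Tlr2 recognizes lipoproteins, moved in opposite directions. Tlr6 had 0, 4 and 5 counts in MIN, 89, 55 and 87 in adenoma and 48, 46 and 45 after sulindac. It rose by 4.85 in adenoma (SE 0.60, edgeR adjusted p = 0.000198) and by 4.24 in sulindac-treated organoids against MIN (SE 0.58, edgeR adjusted p = 0.000257). With so few counts in MIN these sizes moved when 1 sample was left out, from 4.28 to 5.50 and from 3.68 to 4.88. Both were highest without MIN replicate 3. Tlr1 had 51, 45 and 11 counts in MIN, 3, 1 and 1 in adenoma and 0, 2 and 1 after sulindac. The groups did not overlap, and MIN exceeded adenoma by a ratio of 18.2 (95% counting interval 7.56 to 57.2, edgeR adjusted p = 0.00151) and sulindac-treated organoids by 27.8 (9.26 to 137, edgeR adjusted p = 0.00129). Per length, Tlr2 was above both partners in each group. In the reference annotation 13.6% of the 50-base stretches of Tlr1 occur in Tlr6, so the division of reads between these paralogs is uncertain. Tlr7, Tlr8, Tlr9, Tlr11, Tlr12 and Tlr13 had at most 5 counts in any sample and were not tested.

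Among genes that deliver ligands or fold receptors, 8 were tested between adenoma and MIN, and 1 rose and 2 fell. Cd36, a lipid scavenger receptor that assists Tlr2, had 257, 267 and 123 counts in MIN, 0, 1 and 0 in adenoma and 0 in all sulindac-treated samples. The ratio of MIN to adenoma was 550 (95% counting interval 98.4 to 21800), and MIN was at least 54.9-fold higher than sulindac-treated organoids, taking 3 counts per library as the floor. Slc15a1, a transporter of small peptides that include NOD ligands, fell by 4.52 in adenoma (SE 0.32, edgeR adjusted p = 6.54e-06) and fell by 5.27 in sulindac-treated organoids against MIN (edgeR adjusted p = 2.1e-06). Cnpy4, related to a chaperone of Toll-like receptors, rose by 0.87 in adenoma and fell by 1.49 with sulindac (edgeR adjusted p = 0.00732 and 0.000364). With sulindac the peptide transporter Slc15a2 fell by 1.37 and Slc15a4 rose by 0.71 (edgeR adjusted p = 0.00121 and 0.00182), and Slc15a2 also fell against MIN, by 0.89 (edgeR adjusted p = 0.00338).

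Of 2 other adaptors tested, Ticam1, the adaptor of Tlr3 and also an adaptor of Tlr4, fell in both comparisons with MIN. The fall was 1.07 in adenoma and 0.89 in sulindac-treated organoids (edgeR adjusted p = 0.000354 and 7.36e-05). Ticam2 had 7, 1 and 3 counts in MIN, 0 in each adenoma sample and 1, 0 and 0 after sulindac, and was not tested. Ticam1 was at 40.7, 42.6 and 38.8 CPM in MIN, 23.6, 17.7 and 16.7 in adenoma and 23.9, 20.8 and 21.1 after sulindac. Pik3ap1, which links Toll-like receptors to phosphoinositide 3-kinase, fell by 2.72 with sulindac and by 2.44 against MIN (edgeR adjusted p = 0.00374 and 0.00128).

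Of 18 kinases and ubiquitin ligases, 2 rose and 2 fell in adenoma. Ripk2, the kinase downstream of Nod1 and Nod2, was at 4.09, 4.23 and 3.21 CPM in MIN, 9.29, 9.02 and 8.50 CPM in adenoma and 10, 11.3 and 11.6 CPM after sulindac. It rose by 1.22 in adenoma (SE 0.18, edgeR adjusted p = 0.000585) and by 1.5 in sulindac-treated organoids against MIN (SE 0.17, edgeR adjusted p = 7.59e-05). With sulindac against untreated adenoma, where Nod1 fell too, Ripk2 was not called (0.30, edgeR adjusted p = 0.111). Birc3, a ubiquitin ligase of the NOD and TNF pathways, fell by 1.33 in adenoma and by 1.07 in sulindac-treated organoids against MIN (edgeR adjusted p = 0.000137 and 0.00017), whereas its relative Birc2 rose by 0.66 in adenoma (edgeR adjusted p = 0.00167). Traf3 fell by 0.71 in sulindac-treated organoids against MIN (edgeR adjusted p = 0.000116). With sulindac 1 of the 18, Tab2, rose against adenoma, by 0.54 (edgeR adjusted p = 0.00421).

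Of 12 inhibitors tested, 1 rose and 1 fell in adenoma. Irak3, which restrains Toll-like receptor signaling at the Myd88 complex, had 168, 173 and 94 counts in MIN, 4, 5 and 5 in adenoma and 2, 1 and 2 after sulindac. It fell by 4.67 in adenoma (SE 0.35, edgeR adjusted p = 9.5e-06), and MIN exceeded sulindac-treated organoids by a ratio of 67.8 (95% counting interval 28.8 to 210, edgeR adjusted p = 4.94e-06). Nfkbie, an inhibitor of NF-κB, rose by 0.89 in adenoma and fell by 1.65 with sulindac (edgeR adjusted p = 0.00524 and 0.00181). Tollip rose with sulindac by 0.60 against adenoma and by 0.56 against MIN (edgeR adjusted p = 0.00243 and 0.000361), and Sigirr by 0.88 against MIN (edgeR adjusted p = 8.26e-05).

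Of 13 genes of the NF-κB and IRF modules, 2 were called in adenoma and both rose, and 2 rose and 2 fell with sulindac. Irf5, a transcription factor activated through Myd88, was at 1.48, 1.22 and 0.899 CPM in MIN, 7.02, 8.69 and 12.7 CPM in adenoma and 5.17, 3.94 and 3.78 CPM after sulindac. It rose by 2.97 in adenoma (SE 0.30, edgeR adjusted p = 5.54e-05), fell by 1.13 with sulindac (SE 0.24, edgeR adjusted p = 0.00842) and was 1.83 above MIN after it (edgeR adjusted p = 0.000364). Rela, the p65 subunit of NF-κB, rose by 1.03 in adenoma (SE 0.10, edgeR adjusted p = 4.5e-05). With sulindac Ikbkg and Chuk, subunits of the IκB kinase, rose by 0.92 and 0.74 against adenoma (edgeR adjusted p = 0.00104 and 0.00127), and Ikbkg by 1.29 against MIN (edgeR adjusted p = 4.44e-06). Rel fell by 0.98 in sulindac-treated organoids against MIN (edgeR adjusted p = 0.00158).

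Of 8 secreted targets tested, 1 rose and 4 fell in adenoma. Il18, among those that fell, lay outside the naming rule and was named after its values were seen. It had 247, 315 and 211 counts in MIN, 48, 38 and 49 in adenoma and 31, 49 and 40 after sulindac. Its log2 fold change between adenoma and MIN stayed between -2.35 and -2.15 when any 1 sample was left out. The antibacterial lectins Reg3g and Reg3b in adenoma fell by 7.61 and by 6.48 (edgeR adjusted p = 5.06e-06 and 2.13e-05), with Reg3g at 17.3, 22.6 and 44.8 CPM in MIN and at most 0.196 CPM in adenoma. Reg3b had 0, 7 and 4 counts in adenoma and 0, 13 and 6 after sulindac. The chemokine Ccl20, a target of flagellin sensing, fell by 2.66 in adenoma and fell by 2.74 in sulindac-treated organoids against MIN (edgeR adjusted p = 0.000391 and 0.000616), where Reg3g fell by 7.40 and Reg3b fell by 5.6 (edgeR adjusted p = 1.16e-05 and 7.2e-05). For Reg3b, leaving out 1 sample moved the log2 fold change between adenoma and MIN from -5.9 to -7.3, the latter without adenoma replicate 2. Between sulindac-treated adenoma and MIN it moved from -5.06 to -6.63, the latter without sulindac replicate 2. The neutrophil chemokine Cxcl1 had 2, 5 and 6 counts in MIN, 16, 14 and 21 in adenoma and 4, 2 and 4 after sulindac. It rose by 2.17 in adenoma, a comparison for which it was named after its values were seen, and fell by 2.17 with sulindac (edgeR adjusted p = 0.00447 and 0.00701). Cxcl16 rose by 1.11 with sulindac (edgeR adjusted p = 0.00964). In every comparison the enterocyte and Paneth marker sums given above stand beside these targets, and their part was not tested.

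**Figure D4:**
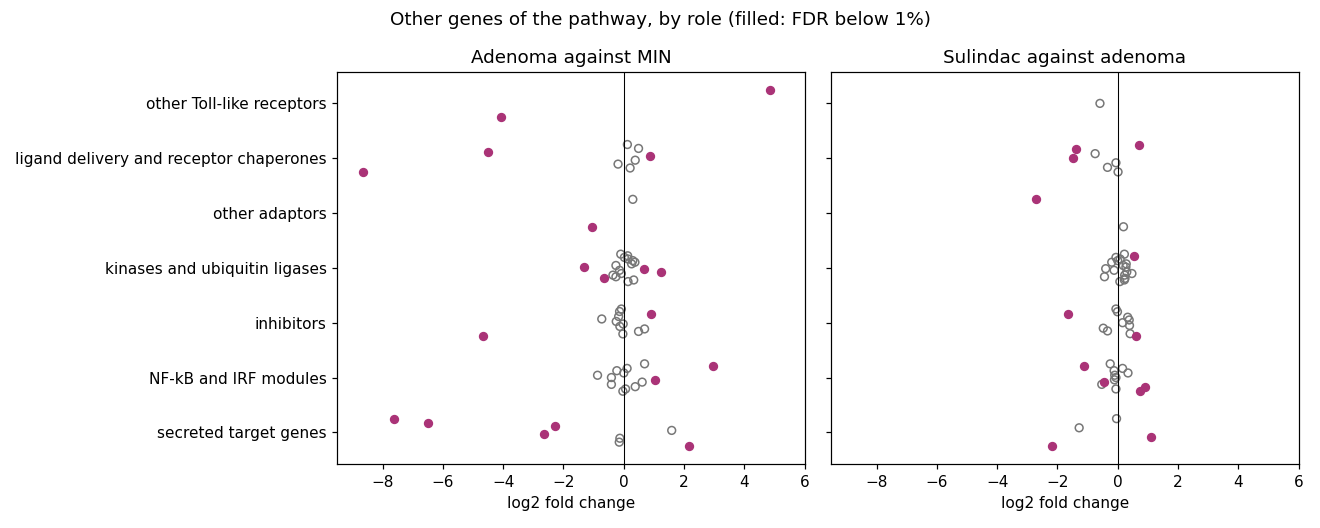
Log2 fold changes (horizontal axes) of the other tested pathway genes by role, 1 point a gene, filled where the FDR was below 1%, for adenoma against MIN and sulindac-treated against untreated adenoma. Reg3g (-7.61) and Tlr6 (4.85) lie at the edges of the left panel beside Cd36, whose fitted value rests on 1 count in adenoma and depends on the fit's prior count.

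The calls of the following genes named from the lists were lost when some single samples were left out. Between adenoma and MIN these were Birc2 (without MIN replicate 2, edgeR adjusted p = 0.0117), Cnpy4 (without MIN replicate 1 or 3 or adenoma replicate 2 or 3, up to 0.0259), Nfkbie (without MIN replicate 1 or 2 or adenoma replicate 2 or 3, up to 0.0269) and Cxcl1 (without MIN replicate 1 or 2 or adenoma replicate 1 or 3, up to 0.0206). Between sulindac-treated and untreated adenoma they were Slc15a4 (without sulindac replicate 1, edgeR adjusted p = 0.0103), Pik3ap1 (without sulindac replicate 1 or 3, up to 0.0218) and Tollip (without adenoma replicate 2 or sulindac replicate 3, up to 0.0155). Tab2, Cxcl16 and Irf5 lost theirs without any 1 of the 3 sulindac samples, Tab2 and Irf5 also without adenoma replicate 2, and Cxcl16 and Irf5 also without adenoma replicate 3 (edgeR adjusted p up to 0.0233, 0.0393 and 0.0409). Cxcl1 lost its call without any 1 of the 6 samples (0.0173 to 0.0298). Between sulindac-treated adenoma and MIN, Slc15a2 lost its call without MIN replicate 1 or 2 or sulindac replicate 1 or 2 (edgeR adjusted p up to 0.0152).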

How the data were processed

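RNA-seq covered 9 organoid samples, and the authors deposited raw counts per gene symbol without normalization. The submitters' notes name Bowtie2 2.2.4, RSEM and mm9, with no role for each. The titles of the samples gave their groups and replicate numbers. MIN replicate 1 was given as 2 columns of the same name and a further column equal to their sum, which was used as 1 sample. The 2 columns were taken to be separate runs, which their names do not state. The chi-square per gene between these columns was 1.19, beside 18.6 to 81.7 between replicates.

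From these counts, edgeR 4.0.16 under R 4.3.3 removed low genes (filterByExpr), scaled libraries (TMM) and tested each pair of groups in a fit of its own (robust glmQLFit, then glmQLFTest) at an FDR of 1%. Dividing a log2 fold change by the square root of its F gave the SE. The members and gene lists were chosen with earlier results of these data known. All 10 members were named, and per list and comparison up to 3 called genes of largest change without overlap between groups. Il18, Tnf and, for adenoma against MIN, Cxcl1 lay outside this rule and are marked as such. Untested pathway genes whose counts are given, such as Ticam2, Ccl5, Lbp and Lcn2, also lie outside it. MIN and adenoma samples of the same number departed from their group means weakly in the same direction (correlations across genes 0.13, 0.11 and 0.19). Whether the numbers of the titles pair samples is not given. The main fits therefore ignored them, and a block for replicate number was an alternative. The script was also run on simulated counts for adenoma against MIN (13628 genes), with the same dispersion for every gene and no replicate effect. It recovered 100 of 100 genes changed 4-fold and 65 of 100 changed 2-fold, with 6 false calls. These figures check the script and are not error rates for these data. Lengths, shared 50-base stretches and exon overlaps came from GENCODE M21 (GRCm38). Alternatives were RLE size factors, library size alone, other filters, the replicate block, 1 joint fit of the 9 samples, omission of each sample, DESeq2 1.42.0, an FDR of 5% and a minimum change of 2-fold. The 27 symbols turned into dates were kept but not named.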

Additional observations from a re-analysis of the deposited data

How the results depend on the processing

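Of the 388 alternative values for the log2 fold changes of the 10 genes, 359 kept their direction and side of the threshold, 11 passed it newly, 13 no longer passed and 5 changed sign. The last were of Tirap, between adenoma and MIN without MIN replicate 2 (-0.01) or adenoma replicate 1 (-0.04, range on leaving out 1 sample -0.04 to 0.14) and with sulindac under library size alone (-0.03), and of Tlr2 between sulindac-treated adenoma and MIN without MIN replicate 3 (-0.17) or sulindac replicate 2 (-0.08, range -0.17 to 0.25). Between sulindac-treated and untreated adenoma, 5 of the 10 genes were called by DESeq2 and 5 at an FDR of 5%, against 3. Calls over all 12962 genes rose too, from 1078 higher and 1179 lower to 1778 and 1766 by DESeq2. At an FDR of 5% they were 2034 and 2374. Of the other pathway genes, 19 were called between adenoma and MIN, 11 with at least 10 counts in every sample and 30 at an FDR of 5%. Over all genes these settings gave 2549 higher and 2765 lower of 13744, 2043 and 1920 of 12070, and 3493 and 3670 of 13744. With sulindac 13 were called, 21 at an FDR of 5%, 7 with at least a 2-fold change and 6 to 14 when 1 sample was left out, the lowest without sulindac replicate 1 or 3. Between sulindac-treated adenoma and MIN 31 were called, 14 with at least a 2-fold change. The causes were not tested. Tlr5 had too few counts for comparisons with sulindac when 10 counts were required in every sample. Myd88 with sulindac was called without the low-count filter (0.74, adjusted p = 0.00738), in the fit of all 9 samples (0.71, 0.0091) and by DESeq2 (0.73, 0.000817). Tlr4 with sulindac was called by DESeq2 (0.78, 0.00473), and Ly96 between sulindac-treated adenoma and MIN with at least 10 counts (0.74, 0.00972), in the fit of all samples (0.77, 0.0069) and by DESeq2 (0.76, 0.00334).

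With the replicate block, adenoma against MIN kept 5 of the 10 genes called and had 21 other pathway genes in place of 19, and no call among the 10 genes changed. In the other comparisons the correlations of same-numbered samples were 0.26, 0.21 and -0.08 with sulindac against adenoma, and -0.03, 0.40 and 0.26 against MIN. Their means were 0.13 and 0.21, beside 0.14 for adenoma against MIN. There the block gave 2 and 5 of the 10 genes in place of 3 and 4, with Cd14 at -1 (edgeR adjusted p = 0.0107) and Ly96 at 0.77 (0.00855). It gave 10 and 32 other pathway genes in place of 13 and 31. Over all genes it gave 872 higher and 1061 lower in place of 1078 and 1179, and 3280 and 3791 in place of 3114 and 3625.

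Over all genes, sulindac against adenoma gave 1078 higher and 1179 lower. Under library size alone this was 603 and 1983, with the median moving from -0.01 to -0.18, and adenoma against MIN gave 3108 higher and 2282 lower in place of 2549 and 2765, with the median moving from -0.01 to 0.12. With sulindac an FDR of 5% gave 2034 and 2374, DESeq2 1778 and 1766, and leaving out 1 sample between 423 and 1403 higher and between 386 and 1488 lower. A minimum change of 2-fold lowered the counts to 1715 and 1862 between adenoma and MIN, 365 and 703 with sulindac, and 1501 and 2104 between sulindac-treated adenoma and MIN.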

Other observations

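Several ligands and secreted targets of the pathway lay too near the counting floor to be tested, and their counts are given as values. Ccl5, a chemokine of the IRF-driven response, had 0, 2 and 1 counts in MIN organoids, 14, 8 and 17 in adenoma and 8, 1 and 0 after sulindac, and the ratio of adenoma to MIN was 15.3 (95% counting interval 4.86 to 77.3). Lbp, which carries LPS to Cd14, had 0, 3 and 0 counts in MIN, 2, 19 and 9 in adenoma and 1, 2 and 5 after sulindac, with a ratio of adenoma to MIN of 11.8 (3.66 to 60.2). Lcn2, which binds bacterial siderophores, had 10, 13 and 11 counts in MIN, 0, 8 and 1 in adenoma and 0, 1 and 1 after sulindac. Saa3 had 2, 6 and 4 counts in MIN and 1, 3 and 1 in adenoma. Its ratio of MIN to adenoma was 2.04 (95% counting interval 0.669 to 7.4), and that of the receptor Tlr7 was 5.95 (0.765 to 268). Saa1 had 0, 1 and 4 counts in MIN and 0 in each adenoma sample. Ccl2 had 0 counts in each MIN sample and 4, 3 and 2 in adenoma. The interferon Ifnb1 and the cytokine Il6 had 0 counts in all 9 samples, and Il1b had 1 count in 1 of them.

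Tnf, a cytokine induced by Toll-like receptors, had 32, 26 and 82 counts in MIN, 109, 104 and 161 in adenoma and 60, 36 and 43 after sulindac, and was named after its values were seen. Adenoma samples lay above all others, but neither difference was called by edgeR, with 1.59 against MIN (adjusted p = 0.0248) and -1.28 for sulindac against adenoma (adjusted p = 0.0136).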
